A study of Mus musculus with 4 samples.

Results

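The cells described here are fibroblasts of transplanted mouse hearts that carried the transcripts of Postn and Cthrc1, 2 secreted matrix proteins. A barcode was kept with at least 500 unique molecular identifiers (UMIs), at least 300 genes and at most 20% mitochondrial UMIs. It was called a fibroblast with at least 10 UMIs over Col1a1, Col1a2 and Col3a1, at most 1 over Ptprc, Pecam1 and Cdh5, and at most 2 over Rgs5, Myh11 and Kcnj8. Members were chosen by measured values of the same cells: a member had, in addition, at least 5 UMIs over Postn and Cthrc1 and at most 1 of Ccl19. This gave 4006 members among 7146 fibroblasts and 30895 barcodes. The comparison cells were 857 fibroblasts with at most 1 UMI over Postn and Cthrc1 and at most 1 of Ccl19, called Postn-low below. The rule reads raw UMIs, so it favours deeply sequenced barcodes.

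Fibroblasts make the collagen scaffold of the heart, and after injury they divide and turn into matrix-secreting cells, some of which take on contractile proteins and are called myofibroblasts. Periostin, the product of Postn, sits in the matrix and binds integrins and other matrix proteins, and is the classic marker of this activated state in the heart. Cthrc1, a secreted glycoprotein with a short collagen-like stretch, marks strongly collagen-producing fibroblasts in scars of the mouse heart and lung. Transforming growth factor beta is the best-known inducer of both genes.

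Hearts were collected on day 5 after transplantation and digested into cell suspensions. There were 3 libraries from allogeneic grafts (donor and recipient genetically different) and 1 from an isogeneic graft (donor and recipient genetically identical), named allogeneic 1, 2 and 3 and isogeneic 2 after their labels. The labels give no strain, age, sex, cell sort or drug, and do not state whether each library is from another animal. The spread behind the p-values is thus that between libraries, pooled over genes in the main fits, and could be technical. Libraries held 51054446, 63434265 and 51463909 UMIs in the allogeneic grafts and 100038951 in the isogeneic graft. Pairs of libraries shared few barcodes, and no member barcode was found in more than 1 library.

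Members were very unevenly spread, with 9, 11 and 229 in allogeneic 1, 2 and 3 and 3757 in isogeneic 2. The few members of allogeneic 1 and 2 were also the deepest, with medians of 39524 and 23527 UMIs, against 7997 in allogeneic 3 and 11298 in the isograft. More than 20000 UMIs were found in 8 of the 9, 6 of the 11, 34 of the 229 and 670 of the 3757. Comparisons between grafts therefore rest above all on allogeneic 3 and on a lone isogeneic library, whose variation was taken to equal that of the allografts. Allogeneic 1 fell short of the 10 members required of a library, and results with it are given beside those without it.

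Members made up 19.1%, 11.1% and 12.7% of fibroblasts in allogeneic 1, 2 and 3 (Wilson 95% intervals 10.4 to 32.5, 6.32 to 18.8 and 11.3 to 14.3), against 72.3% in the isograft (71.0 to 73.5). The mean was 14.3% ± 4.25 (SD, n = 3) in allografts and 72.3% in the isograft (n = 1), a difference of -57.9 percentage points with no overlap. The cells had been singled out as mostly isogeneic, so these shares carry no test. The rule reads raw UMIs, so the shares were also taken with each fibroblast thinned to 3000 UMIs and at least 3 required over Postn and Cthrc1. Members were then 2.50%, 4.94% and 11.4% of fibroblasts of that depth in allogeneic 1, 2 and 3, against 62.6% in the isograft. Only 1 and 4 cells were left as members in allogeneic 1 and 2. Fibroblasts themselves numbered 47, 99 and 1801 in the allografts and 5199 in the isograft. Members lost under the Ccl19 limit account for part of the gap. Ccl19, a lymphoid chemokine that draws T cells and dendritic cells, had at least 2 UMIs in 5 of 14, 8 of 19 and 531 of 760 fibroblasts past the Postn and Cthrc1 limit in the allografts, against 83 of 3840 in the isograft. Counting these cells in, the share averaged 30.4% ± 11.5 (SD, n = 3) in allografts and 73.9% in the isograft.

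**Figure D1:**
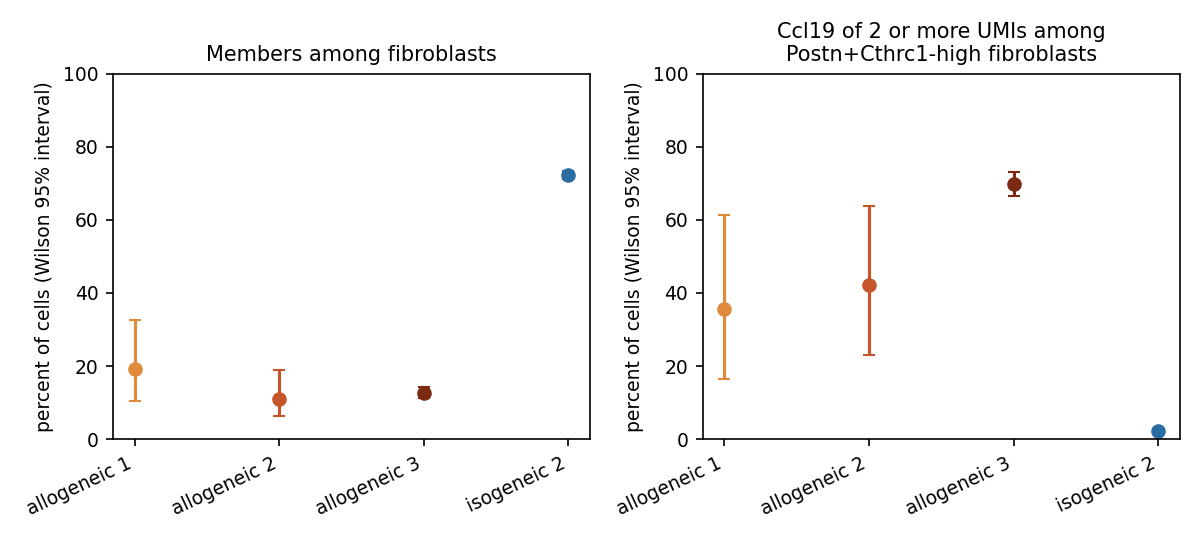
Percent of fibroblasts that were members (left panel) and percent of fibroblasts with at least 5 UMIs over Postn and Cthrc1 that had at least 2 Ccl19 UMIs (right panel), by library, with Wilson 95% intervals. The 3 allogeneic libraries lie between 11.1% and 19.1% on the left and between 35.7% and 69.9% on the right, while isogeneic 2 lies at 72.3% and 2.16%.

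The limit of 5 UMIs fell in a continuous range. Exactly 5 UMIs were carried by 1, 1 and 28 members of allogeneic 1, 2 and 3 and by 206 isogeneic members. Just outside, 0, 0 and 48 allogeneic and 192 isogeneic fibroblasts had 4. The median sum of both transcripts was 8, 11 and 11 UMIs in allogeneic members, against 19 in isogeneic members. Both transcripts were present in 184 of 229 members of allogeneic 3 and in 3154 of 3757 isogeneic members.

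Levels below are counts per 1000000 UMIs (CPM), from UMIs summed over the cells of a class in a library. Postn reached 209, 483 and 1174 CPM in members of allogeneic 1, 2 and 3, against 1263 in isogeneic members. Cthrc1 stood at 59.7, 83.2 and 696 CPM in allogeneic members, against 1076 in isogeneic members. Both follow from the rule and describe how the members differ among libraries, with allogeneic 1 and 2 far below the other 2.

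The label comes with 2 more markers that the rule did not read, Col8a1 and Aspn. They were chosen with earlier results of these data known, so they are no independent check of it. Col8a1, a short-chain network collagen, had 433, 460 and 855 CPM in allogeneic members, against 967 in isogeneic members, and it was also present in Postn-low fibroblasts (421, 212 and 419 CPM in allografts, 529 in the isograft). Aspn, a small leucine-rich proteoglycan that binds collagen, had 222 CPM in members of allogeneic 3 and 302 in isogeneic members, but not 1 UMI in the members of allogeneic 1 or 2. A count of 0 there allows up to 8.96 and 11.9 CPM (3 UMIs per library), well below the level of the other 2 libraries. After each cell was thinned to 3000 UMIs, Aspn was found in 68 of 205 members of allogeneic 3 (33.2%) and 1764 of 3691 isogeneic members (47.8%). Leukocytes of the same libraries, which should lack it, gave 0.0811% and 0.979%. Postn-low fibroblasts gave 13 of 95 (13.7%) and 132 of 436 (30.3%), so Aspn was common in both classes of fibroblast. Without thinning the shares were 54.1% and 76.7% of members. The full set of markers was thus found in allogeneic 3 and the isograft, and only in part in allogeneic 1 and 2. In those 2 libraries Col1a1, the main type I collagen chain and a gene of the rule, was also low (1825 and 1724 CPM, against 5598 in allogeneic 3 and 6246 in isogeneic members).

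Set beside the Postn-low fibroblasts of their own library, the members had higher levels of some secreted matrix, crosslinking and contractile genes, with Lox, Mfap5 and Tagln past 2-fold in each library compared, and lower levels of some macrophage genes. Since Postn and Cthrc1 chose the cells, this contrast is a description with no test. Of 3628 genes with a mean of at least 50 CPM in either class, 11 (0.303%) were at least 2-fold higher in members in each of allogeneic 2, allogeneic 3 and isogeneic 2, and 35 (0.965%) at least 2-fold lower. The median over all these genes was a log2 ratio of 0.01.

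Lox encodes lysyl oxidase, which crosslinks collagen and elastin. It had 281, 392 and 456 CPM in members of allogeneic 2, allogeneic 3 and isogeneic 2, against 67.4, 125 and 145 CPM in Postn-low cells, a mean log2 ratio of 1.75 ± 0.19 (SD over 3 libraries). The ratio was nearly the same in each library. Tagln, an actin-binding protein of smooth muscle and myofibroblasts, had 392, 851 and 1553 CPM in members, against 19.3, 325 and 361 CPM in Postn-low cells (mean log2 ratio 2.51 ± 1.37, SD). Its spread came from allogeneic 2, where the Postn-low level rests on few UMIs; without that library the mean was 1.75. Mfap5, a glycoprotein of elastic microfibrils, had 2065, 2174 and 3433 CPM in members and 703, 878 and 1369 CPM in Postn-low cells, again with even ratios (1.39 ± 0.13, SD).

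The other 8 genes were Cilp, a matrix protein of cartilage that injured heart fibroblasts also make (mean log2 ratio 2.28), the histone gene H2ac8 (1.94), Tspan6, a tetraspanin (1.60), Ltbp2, a microfibril protein related to the binding proteins of latent transforming growth factor beta (1.54), Csrp2, a LIM protein of smooth muscle (1.36), the tubulin gene Tubb2b (1.34), Sfrp2, a secreted modulator of Wnt signalling (1.24), and Srpx2 (1.17). Histone H2ac8 was the least stable of them, with a log2 ratio of -0.23 when members were chosen after thinning to 3000 UMIs. Others also fell below 2-fold in some settings. After thinning, Mfap5 had 0.97 and Tubb2b 0.82, and Sfrp2 had 0.21 with at least 3 Postn and Cthrc1 UMIs.

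By group, the fibrillar and network collagens had a median log2 ratio of 0.58 (15 of 19 genes measured, 3 more being genes of the rule), the matrix glycoproteins 0.53 (20 of 25), and the genes of collagen processing and crosslinking 0.51 (18 of 22). Most of these genes lay below the 2-fold limit: 0 collagens, 2 glycoproteins and 1 crosslinking gene reached it. Col5a2, a fibril-initiating collagen, had 713, 1038 and 1302 CPM in members of allogeneic 2, allogeneic 3 and isogeneic 2, against 414, 553 and 724 CPM in Postn-low cells. Sparc, which binds collagen outside the cell, had 5282, 7700 and 10790 CPM in members and 4190, 3353 and 5592 CPM in Postn-low cells. Serpinh1, the collagen chaperone of the endoplasmic reticulum, had 1748, 1844 and 2426 CPM in members and 1214, 997 and 1420 CPM in Postn-low cells. All 3 were higher in members in each library, by less than 2-fold on average.

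Contractile genes had a median log2 ratio of 0.37 (12 of 17 measured). Acta2, smooth muscle actin and the usual marker of myofibroblasts, had 483, 662 and 1121 CPM in members, against 106, 357 and 371 CPM in Postn-low cells. The general cytoskeletal gene Cald1 was nearly level, at 590, 519 and 517 CPM in members and 636, 433 and 399 CPM in Postn-low cells. The smooth muscle regulator Myocd and the late smooth muscle gene Cnn1 stayed below 3 CPM in members of each library.

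The growth factor pathways showed no common shift. Genes of transforming growth factor beta and activin signalling had a median log2 ratio of 0.01 (25 of 27 measured). Ccn2, a matricellular target of that pathway, had 840, 935 and 1614 CPM in members and 164, 354 and 856 CPM in Postn-low cells, whereas Ccn1, its close relative, was level on average (254, 739 and 755 CPM in members, 318, 567 and 658 CPM in Postn-low cells). Proteoglycans had a median of -0.10 (8 of 12), with Bgn higher in members (2643, 2833 and 3684 CPM, against 1185, 1574 and 2873 CPM) and Dcn not (4169, 3343 and 4505 CPM, against 4527, 2702 and 6793 CPM). Proteases and their inhibitors had a median of -0.27 (12 of 18), class I antigen presentation -0.26 (11 of 13, with 0 at least 2-fold lower) and class II -1.07 (6 of 6, with 1 at least 2-fold lower). Genes of resting heart fibroblasts had a median of -0.56 (17 of 20). The receptor Pdgfra, a general fibroblast marker, was among them, at 59.4, 124 and 121 CPM in members and 125, 163 and 219 CPM in Postn-low cells.

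The 10 genes lowest in members relative to Postn-low cells were Slpi, a secreted protease inhibitor (mean log2 ratio -3.43), Hdac9 (-3.23), the acute-phase gene Saa3 (-3.11), the chaperone Clu (-2.83), the matrix gene Tnxb (-2.24), the transcription factor Maf (-2.24), the adhesion gene Lsamp (-2.11), the cytotoxic granule gene Gzmb (-2.04), Gmfg (-1.77) and the complement gene C1qa (-1.75). The values of 3 of them rest on which libraries are taken: without allogeneic 2, Hdac9 had -1.14, Saa3 -1.79 and Clu -1.84, and without the isograft -4.29, -4.09 and -3.42. With members chosen after thinning to 3000 UMIs, in allogeneic 3 and the isograft only, Hdac9 had -0.70, Maf -0.83 and Gmfg -0.83, short of 2-fold. The rest of the 10 stayed past 2-fold on average there. Several of the 10 are leukocyte genes. The macrophage and monocyte list had a median log2 ratio of -1.25 (10 of 14 measured, 4 at least 2-fold lower), and its summed level was 1407, 1759 and 1567 CPM in members of allogeneic 2, allogeneic 3 and isogeneic 2, against 2562, 4224 and 4247 CPM in Postn-low cells. Epicardial and mesothelial markers were low in both classes and lower in members: the 9 genes summed to 3.96, 8.43 and 5.53 CPM in members of the same libraries, against 19.3, 76.7 and 67.7 CPM in Postn-low cells. In members 1, 2 and 7 of the 9 were detected, against 2, 9 and 9 in Postn-low cells. Depth differed as well: Postn-low cells had medians of 1961.5, 2367 and 5006 UMIs in these libraries, against 23527, 7997 and 11298 in members. The part of any of these in the differences was not tested.

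**Figure D2:**
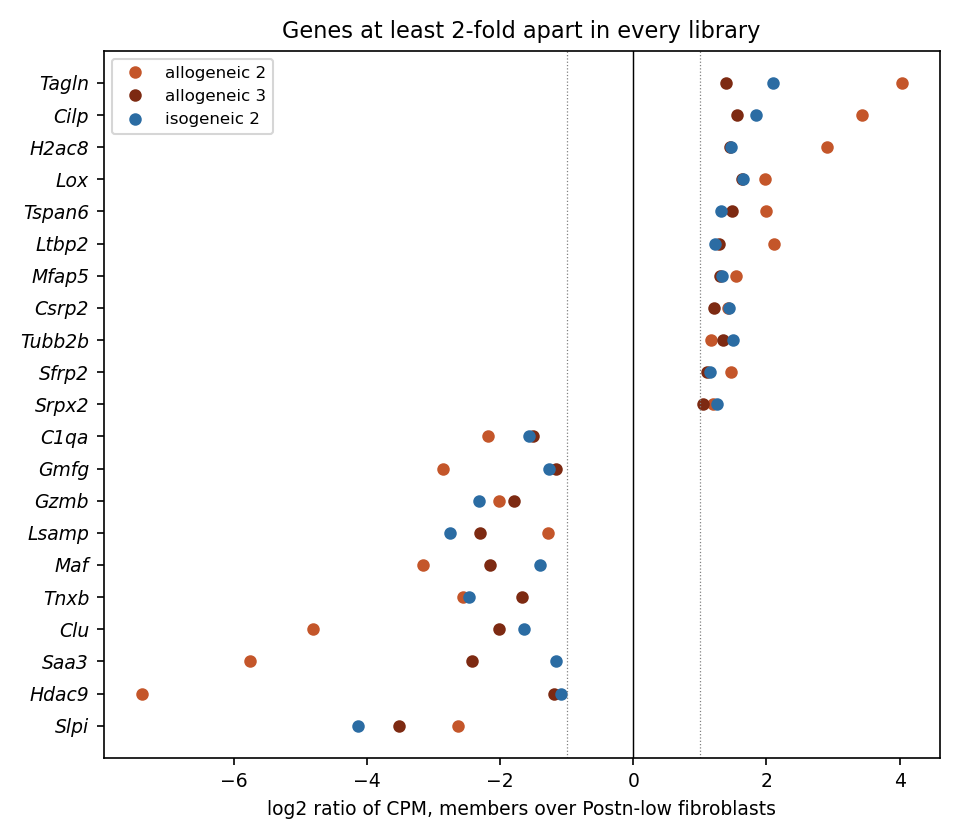
Log2 ratio of CPM, members over Postn-low fibroblasts, in allogeneic 2, allogeneic 3 and isogeneic 2, for the 11 genes at least 2-fold higher and the 10 lowest of the 35 genes at least 2-fold lower in each library; dotted lines mark 2-fold. Lox and Mfap5 have nearly the same ratio in the 3 libraries, while Tagln, Cilp, Saa3 and Hdac9 differ widely, with allogeneic 2 farthest out.

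Within the members, several matrix genes were graded with the amount of Postn and Cthrc1 per UMI and others were not; the genes compared were picked by hand. Members of allogeneic 3 and isogeneic 2 were ranked by that rate and divided into terciles (76, 76 and 77 cells, and 1252, 1252 and 1253 cells). From the lowest to the highest tercile, Fn1, which encodes fibronectin, had 643, 1036 and 1620 CPM in allogeneic 3 and 618, 1017 and 1624 CPM in the isograft. The steps were almost the same in both grafts. Aspn had 83.2, 132 and 540 CPM in allogeneic 3, and 145, 238 and 563 CPM in the isograft. Lox had 201, 338 and 753 CPM in allogeneic 3, and 340, 448 and 609 CPM in the isograft.

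Other matrix and activation genes were not graded in this way. Dcn, a collagen-binding proteoglycan, had 3126, 2929 and 4130 CPM in allogeneic 3 and 4538, 4412 and 4559 CPM in the isograft. Comp, a cartilage matrix protein, had 89.6, 8.24 and 45.5 CPM in allogeneic 3 and 35.6, 27.0 and 39.6 CPM in the isograft, and Thbs1, a matricellular protein, had 430, 691 and 583 CPM in allogeneic 3 and 487, 499 and 490 CPM in the isograft. None of the 3 followed the terciles in both grafts. Tnc, a matrix protein of healing tissue, had 777, 841 and 767 CPM in allogeneic 3 and 521, 524 and 544 CPM in the isograft. Acta2 was level over the lower 2 terciles and higher in the highest one (450, 453 and 1222 CPM in allogeneic 3, 991, 974 and 1434 CPM in the isograft). The fibroblast transcription factor Tcf21 was nearly flat (79.5, 92.0 and 103 CPM in allogeneic 3, 108, 105 and 103 CPM in the isograft).

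Ccl2, Timp1, Gsn and the class I gene H2-K1 ran the other way in both grafts, and Cxcl9 did in allogeneic 3. Ccl2, which draws monocytes, had 5756, 4586 and 2210 CPM from the lowest to the highest tercile of allogeneic 3, and 2890, 2394 and 1615 CPM in the isograft. Timp1, an inhibitor of matrix proteases, had 9864, 7897 and 7119 CPM in allogeneic 3 and 12509, 10628 and 8769 CPM in the isograft. The actin-severing protein gene Gsn, high in resting fibroblasts, had 983, 964 and 716 CPM in allogeneic 3 and 1705, 1327 and 853 CPM in the isograft. These 3 genes were lowest where Postn and Cthrc1 were highest. H2-K1 had 2154, 1522 and 1026 CPM in allogeneic 3 and 355, 314 and 253 CPM in the isograft. Cxcl9 had 2448, 2249 and 1375 CPM in allogeneic 3 and 1.14, 0.988 and 1.21 CPM in the isograft. The terciles also differed in depth, with medians of 13305.5, 6376.5 and 5469 UMIs in allogeneic 3 and 13165.5, 10246 and 10319 UMIs in the isograft, and the part of depth was not tested.

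**Figure D3:**
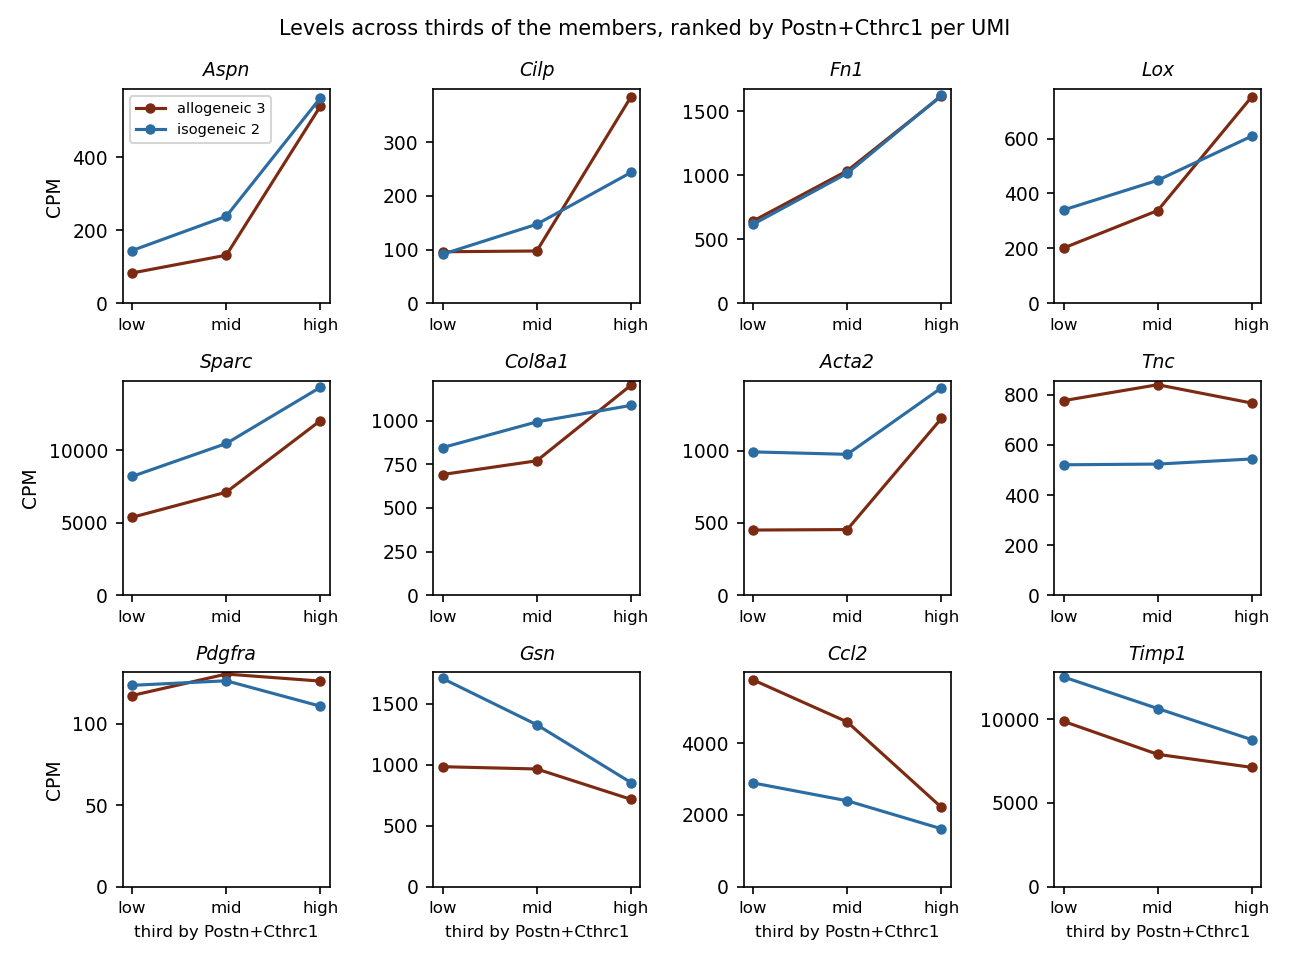
CPM of 12 genes over terciles of the members (low, mid, high), ranked by Postn and Cthrc1 UMIs per UMI, in allogeneic 3 and isogeneic 2. Aspn, Cilp, Fn1, Lox and Sparc are highest in the highest tercile of both grafts, Tnc and Pdgfra are nearly flat, and Gsn, Ccl2 and Timp1 are lowest there; Ccl2 has 2210 and 1615 CPM in the highest tercile of allogeneic 3 and of the isograft.

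Part of the members carried transcripts of mitosis. At least 2 UMIs over Mki67, Top2a, Cdk1, Birc5, Cenpf and Ccnb1, were found in 59 of 229 members of allogeneic 3 (25.8%) and 831 of 3757 isogeneic members (22.1%). Thinned to 3000 UMIs, which left out the cells below that depth, the shares were 30 of 205 (14.6%, Wilson 95% interval 10.4 to 20.1) and 461 of 3691 (12.5%, 11.5 to 13.6). In the few members of allogeneic 1 and 2 the thinned shares were 6 of 9 (66.7%, 35.4 to 87.9) and 2 of 11 (18.2%, 5.14 to 47.7). Thinned Postn-low fibroblasts gave 10 of 95 (10.5%, 5.82 to 18.3) in allogeneic 3 and 26 of 436 (5.96%, 4.10 to 8.59) in the isograft. Leukocytes, which divide as well, gave 11.2% in allogeneic 3 and 14.7% in the isograft, and 23.1% and 20.6% in allogeneic 1 and 2. Members thus lay above Postn-low cells in the isograft, while the intervals of the classes overlap in each allogeneic library. The mitotic kinase gene Cdk1 was highest in the 9 members of allogeneic 1, at 391 CPM, against 119, 73.0 and 69.0 CPM in members of allogeneic 2, allogeneic 3 and the isograft.

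The comparison of grafts asked what differs in members when the donor is foreign. Genes induced by interferon gamma and genes of antigen presentation were far higher in allogeneic than in isogeneic members, while almost no gene of the matrix lists passed the test. In allogeneic 2 and 3 against isogeneic 2, edgeR's quasi-likelihood test with Benjamini-Hochberg adjustment called 181 of 11803 genes at an adjusted p under 0.05 (1.53%), of which 173 were higher (1.47%) and 8 lower (0.0678%). With allogeneic 1 added, 76 of 10934 genes were higher (0.695%) and 0 lower; all 76 were among the 173. The 3-library test leaves 1 residual degree of freedom, that between allogeneic 2 and 3. Its prior degrees of freedom were estimated as infinite, as they were for the difference of effects below. The spread used was then a trend shared by all genes and not that of the single gene. With edgeR's newer quasi-likelihood method the 3-library test called 0 genes (461 had an unadjusted p under 0.05), although that method called 74 with all 4 libraries. Both of these additions were chosen after seeing the data. The median over all genes was 0.01 on the log2 scale.

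Cxcl9, a chemokine induced by interferon gamma that draws T cells, showed the largest fitted rise among genes with a mean of at least 50 CPM in either graft. It had 1389, 4066 and 2096 CPM in allogeneic members, against 1.11 CPM in isogeneic members (log2 fold change 11.32 ± 1.08 SE, adjusted p = 1.08e-21 by edgeR's quasi-likelihood test, and 0.00191 with 4 libraries). Every allogeneic library lay far above the isograft. Thinned to 3000 UMIs, Cxcl9 was found in 117 of 205 members of allogeneic 3 (57.1%) and in 8 of 3691 isogeneic members (0.217%). Leukocytes of these libraries gave 64.2% and 0.163%.

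The other large rises among well-expressed genes were the guanylate-binding proteins Gbp4, Gbp6, Gbp2 and Gbp8, GTPases that attack intracellular microbes, the class I gene H2-Q6, the T cell chemokine Ccl5, the nitric oxide synthase gene Nos2, and AA467197 and Gm15056. Gbp2 had 1434, 1997 and 743 CPM in allogeneic members, against 9.58 CPM in isogeneic members (log2 fold change 7.05 ± 0.89 SE). H2-Q6 had 329, 372 and 125 CPM in allogeneic members, against 0.587 CPM in isogeneic members (8.57 ± 0.93 SE). Nos2 had 29.9, 131 and 18.5 CPM in allogeneic members, against 0.274 CPM in isogeneic members. All 10 also passed with 4 libraries, with log2 fold changes there between 7.05 and 11.02.

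Of the interferon gamma list, 24 of 29 tested genes rose (23 with 4 libraries), with a median log2 fold change of 4.44, and all 29 were above the isograft in each allogeneic library, as were 23.3% of all genes tested. Iigp1, a GTPase of the same defence, had 1834, 2421 and 1527 CPM in allogeneic members, against 20.5 CPM in isogeneic members. Cxcl10, another T cell chemokine, had 2309, 2247 and 1831 CPM in allogeneic members, against 101 CPM in isogeneic members. Ubd, which encodes a ubiquitin-like protein and had a mean below 50 CPM, was at 0 in the isograft (which allows up to 0.0587 CPM) and at 35.8, 43.6 and 43.7 CPM in allogeneic members, so its rise cannot be ranked against that of Cxcl9. The chemokine and cytokine list behaved otherwise, with 1 of 16 genes past the threshold; Ccl2 had 4656, 11131 and 4444 CPM in allogeneic members, against 2343 CPM in isogeneic members, with an adjusted p of 0.505 by edgeR's quasi-likelihood test.

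DNA elements through which interferons act could be read in the promoters of some of these genes. The core of the interferon-stimulated response element, GAAANNGAAA on either strand, was sought between 250 bases before and 50 after the start. In build GRCm38.p6 it was found in 11 of the 20 interferon gamma genes with a RefSeq promoter (55.0%). The share was 33 of the 114 risen genes with a promoter (28.9%) and 3.99% of all 27025 genes with a promoter. The gamma-activated sequence, TTCNNNGAA on either strand, was found in 10 of the 20, in 17.5% of the 114 and in 9.55% of all. The promoters of the 3 best-expressed list genes that rose in both fits and hold the response element are shown, each 5′ to 3′ on its own strand with the bases of the element, on either strand, in capitals. None of the 3 holds the gamma-activated sequence in this window.
Cxcl10 (chr5:92348840-92349139, minus strand): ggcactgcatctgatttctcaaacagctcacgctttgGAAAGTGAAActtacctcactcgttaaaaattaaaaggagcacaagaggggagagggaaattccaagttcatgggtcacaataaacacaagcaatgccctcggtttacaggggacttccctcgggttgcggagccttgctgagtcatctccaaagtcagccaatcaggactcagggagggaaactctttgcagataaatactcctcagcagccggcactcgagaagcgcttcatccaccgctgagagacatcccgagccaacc
Gbp2 (chr3:142620413-142620712, plus strand): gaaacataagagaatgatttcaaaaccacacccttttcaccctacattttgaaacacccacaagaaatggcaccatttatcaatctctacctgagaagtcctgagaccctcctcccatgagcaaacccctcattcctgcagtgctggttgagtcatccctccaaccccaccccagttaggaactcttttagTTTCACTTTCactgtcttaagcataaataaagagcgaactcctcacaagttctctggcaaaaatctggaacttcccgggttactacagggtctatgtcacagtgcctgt
Irgm1 (chr11:48871371-48871670, minus strand): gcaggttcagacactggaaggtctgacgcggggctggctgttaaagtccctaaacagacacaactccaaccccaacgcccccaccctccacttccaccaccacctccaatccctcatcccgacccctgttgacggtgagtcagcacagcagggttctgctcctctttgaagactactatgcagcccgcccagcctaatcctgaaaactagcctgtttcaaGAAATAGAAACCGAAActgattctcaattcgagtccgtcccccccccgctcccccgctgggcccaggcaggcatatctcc
Cxcl10 encodes the chemokine described above, and Gbp2 the GTPase with 1434, 1997 and 743 CPM in allogeneic members. Irgm1, a GTPase of the same defence, has a promoter with 2 overlapping copies of the element. It had 636, 408 and 359 CPM in allogeneic members, against 24.8 CPM in isogeneic members. A match of letters is a description and not a measured binding site. The list was made of interferon gamma genes, so its shares of promoters with an element carry no test.

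**Figure D4:**
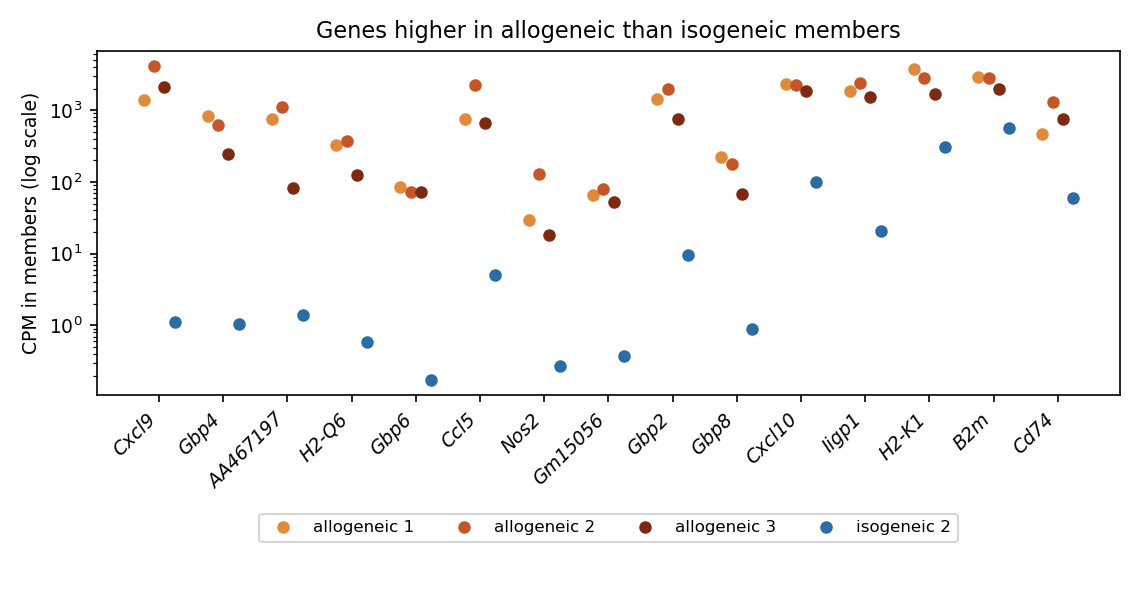
CPM in members of the 3 allogeneic libraries and of isogeneic 2, on a log scale, for the 10 largest fitted rises among genes with a mean of at least 50 CPM in either graft and 5 further interferon and antigen-presentation genes. For each gene the 3 allogeneic points lie above the isogeneic one; Cxcl9 has 1389, 4066 and 2096 CPM against 1.11, and B2m did not pass the test.

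Class I antigen presentation followed. Of 13 genes tested 8 rose (6 with 4 libraries), with a median log2 fold change of 2.31. H2-K1, a classical class I heavy chain, had 3706, 2825 and 1661 CPM in allogeneic members, against 311 CPM in isogeneic members (adjusted p = 0.00789 by edgeR's quasi-likelihood test). B2m, the light chain, had 2885, 2802 and 1982 CPM in allogeneic members, against 559 CPM in isogeneic members, with an adjusted p of 0.147 in the same test. Genes of the H2 family share long stretches of sequence, and donor and recipient strains may differ in them, so their counts are uncertain. Of the type I interferon list, 10 of 17 genes rose and 2 did with 4 libraries; Bst2, a tether of budding viruses, had 1568, 1625 and 1465 CPM in allogeneic members, against 208 CPM in isogeneic members. Complement genes counted 4 of 7, and 0 with 4 libraries.

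All 6 class II genes tested rose (5 with 4 libraries), with a median log2 fold change of 3.997. Cd74, the invariant chain, had 460, 1304 and 757 CPM in allogeneic members, against 58.9 CPM in isogeneic members. These levels were 4.95%, 14.4% and 15.1% of those in leukocytes of the same allogeneic libraries, and 1.56% in the isograft. The macrophage gene Lyz2 stood at 4.69%, 9.80% and 12.7% of its leukocyte level in allogeneic members and at 5.97% in isogeneic members. Gbp2 stood at 483%, 609% and 182% of its leukocyte level in allogeneic members, and Iigp1 at 702%, 907% and 315%. In isogeneic members Gbp2 stood at 104% and Iigp1 at 327%. Cd74 sat in allogeneic members at about the same fraction of the leukocyte level as Lyz2. Gbp2 and Iigp1 lay above the leukocyte level in both kinds of graft. Gbp8 was above the leukocyte level in allogeneic 1 and 2 (127% and 114%) but not in allogeneic 3 (59.7%). Of the other large rises, Gbp4, Gbp6 and H2-Q6 lay above it in each allogeneic library. Cxcl9 stood at 71.5%, 251% and 88.2%, Ccl5 at 68.1%, 171% and 58.2%, and AA467197 at 411%, 556% and 55.7%. Nos2 stood at 23.4%, 106% and 37.1%, and Gm15056 at 5.74%, 7.03% and 9.14%, near the fraction of Lyz2.

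T and natural killer cell genes also rose in the members: 5 of 10 tested (4 with 4 libraries). All 12 genes of the list summed to 812, 2350 and 790 CPM in allogeneic members, against 20.4 CPM in isogeneic members, most of it Ccl5 (750, 2251 and 661 CPM in allogeneic members, 5.07 CPM in isogeneic members). Cd4 was at 0 in allogeneic 1 and 2 and Trac in allogeneic 2, and Cd8a was at 0 in the isograft. Gzmb had 11.9, 15.9 and 38.9 CPM in allogeneic members, which was 1.21%, 1.38% and 5.67% of its leukocyte level, against 1 UMI in isogeneic members. In leukocytes the list summed to 4889, 5546 and 3851 CPM in allografts and 286 CPM in the isograft. Macrophage and monocyte genes summed to 547, 1407 and 1759 CPM in allogeneic members and 1567 CPM in isogeneic members, and 1 of 14 passed. The part of leukocyte transcripts in the changes was not tested.

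Matrix genes hardly passed the test between grafts. Among collagens 1 of 16 tested genes rose (Col18a1, which failed with 4 libraries) and the list had a median of -0.63. Glycoproteins had 0 of 23 (median -0.58), proteoglycans 0 of 10 (-0.72, and -1.12 with 4 libraries), collagen processing 0 of 21 (-0.51), contractile genes 0 of 14 (-0.11, and 0.03 with 4 libraries) and transforming growth factor beta signalling 0 of 26 (-0.27). Sparc had 4859, 5282 and 7700 CPM in allogeneic members, against 10790 CPM in isogeneic members (log2 fold change -0.81 ± 0.60 SE, adjusted p = 1 by edgeR's quasi-likelihood test). Its levels were lower in each allogeneic library, as were those of 21.3% of all genes tested. By list, 12 of 16 collagens, 14 of 23 glycoproteins, 8 of 10 proteoglycans and 13 of 21 collagen processing genes were lower in each. Contractile genes had 5 of 14 and transforming growth factor beta signalling 12 of 26. Above the isograft in each were 2, 3, 0, 2, 4 and 2 genes of these lists, against 23.3% of all genes tested. These counts were not tested. Acta2 had 561, 483 and 662 CPM in allogeneic members, against 1121 CPM in isogeneic members (-1.04 ± 0.59 SE), and Lox had 209, 281 and 392 CPM in allogeneic members, against 456 CPM in isogeneic members (-0.51 ± 0.59 SE). Standard errors near 0.6 mean that a 2-fold change of a matrix gene was not detectable here. Tnc was instead above the isograft in each allogeneic library, at 693, 571 and 793 CPM in allogeneic members and 529 CPM in isogeneic members, and did not pass either.

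Resting fibroblast genes gave 2 rises of 19 tested, both of surface antigens of the Ly6 family and both lost with 4 libraries. Ly6a, which encodes Sca-1, had 2831, 3681 and 1847 CPM in allogeneic members, against 446 CPM in isogeneic members (log2 fold change 2.53 ± 0.70 SE), and Ly6c1 had 299, 305 and 262 CPM in allogeneic members, against 54.8 CPM in isogeneic members. The median of the list was -0.77. Cell cycle genes had 0 of 23 past the threshold, with a median of 0.34 (0.97 with 4 libraries). Igfbp3, which binds insulin-like growth factors, was the 1 rise among 18 growth factor genes and also failed with 4 libraries, at 251, 131 and 29.7 CPM in allogeneic members and 14.6 CPM in isogeneic members.

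The 7 named falls were Hbb-bs and Hba-a1, which encode hemoglobin chains, Pde4d, a phosphodiesterase, 4933424G05Rik, Apoc1, Lypd1 and Ccn5, a matricellular protein that opposes Ccn2. Ccn5 had 0, 19.8 and 77.1 CPM in allogeneic members, against 193 CPM in isogeneic members (-1.89 ± 0.56 SE, adjusted p = 0.0498 by edgeR's quasi-likelihood test), and it was the only gene of 14 in the Wnt and CCN list to pass. Pde4d had 102, 166 and 1190 CPM in allogeneic members, against 2762 CPM in isogeneic members. In both, allogeneic 3 lay nearest to the isograft. All 7 failed with 4 libraries, with adjusted p between 0.162 and 0.890 in edgeR's quasi-likelihood test.

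Most of the rise was shared with the Postn-low fibroblasts of the same grafts. Tested the same way, 200 of 9681 genes rose in Postn-low cells (2.07%), and 139 genes rose in both classes, which is 80.3% of the 173 and 69.5% of the 200. Cxcl9 had 3133, 4180 and 2313 CPM in allogeneic Postn-low cells, against 0.293 CPM in isogeneic Postn-low cells. The difference between the effect of the graft in members and in Postn-low cells was tested with the library as a block. It passed for 10 of 12329 genes (0.0811%), none of them in the interferon gamma, class I or class II lists, for 2 genes with 4 libraries and for 0 with DESeq2 (22 at an unadjusted p under 0.05).

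Among these 10, Gsn and Mgp differed less between grafts in members than in Postn-low cells. Gsn had 609, 701 and 905 CPM in allogeneic members and 1325 CPM in isogeneic members, while Postn-low cells had 652, 337 and 1944 CPM in allografts and 6104 CPM in the isograft (difference of log2 fold changes 2.00 ± 0.35 SE, adjusted p = 3.31e-05 by edgeR's quasi-likelihood test, and 0.244 with 4 libraries). Mgp, an inhibitor of calcification, had 1416, 1958 and 6498 CPM in allogeneic members and 11796 CPM in isogeneic members, while Postn-low cells had 335, 347 and 4597 CPM in allografts and 15266 CPM in the isograft (1.72 ± 0.29 SE, adjusted p = 1.39e-05 in the same test, and 0.244 with 4 libraries). When Postn-low cells of any Ccl19 were taken, the difference of Gsn was 0.51 and that of Mgp -0.10, and neither passed (adjusted p = 1 in edgeR's test for both). Saa3 went the other way, at 38.8, 87.2 and 469 CPM in allogeneic members and 9.90 CPM in isogeneic members, against 97.5, 4835 and 2510 CPM in allogeneic Postn-low cells and 21.99 CPM in isogeneic Postn-low cells (-2.66 ± 0.41 SE). With Postn-low cells of any Ccl19 its difference turned to 1.66, with an adjusted p of 0.0136 in edgeR's test. Ccl24, a chemokine made by macrophages, and Igkc, an antibody light chain, were the 2 genes that also passed with 4 libraries, and both rest on single classes of a library: Ccl24 had 237 CPM in Postn-low cells of allogeneic 3 and at most 1.47 CPM elsewhere, and Igkc had 0.880 CPM in isogeneic Postn-low cells and 22.96 to 75.5 CPM elsewhere.

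**Figure D5:**
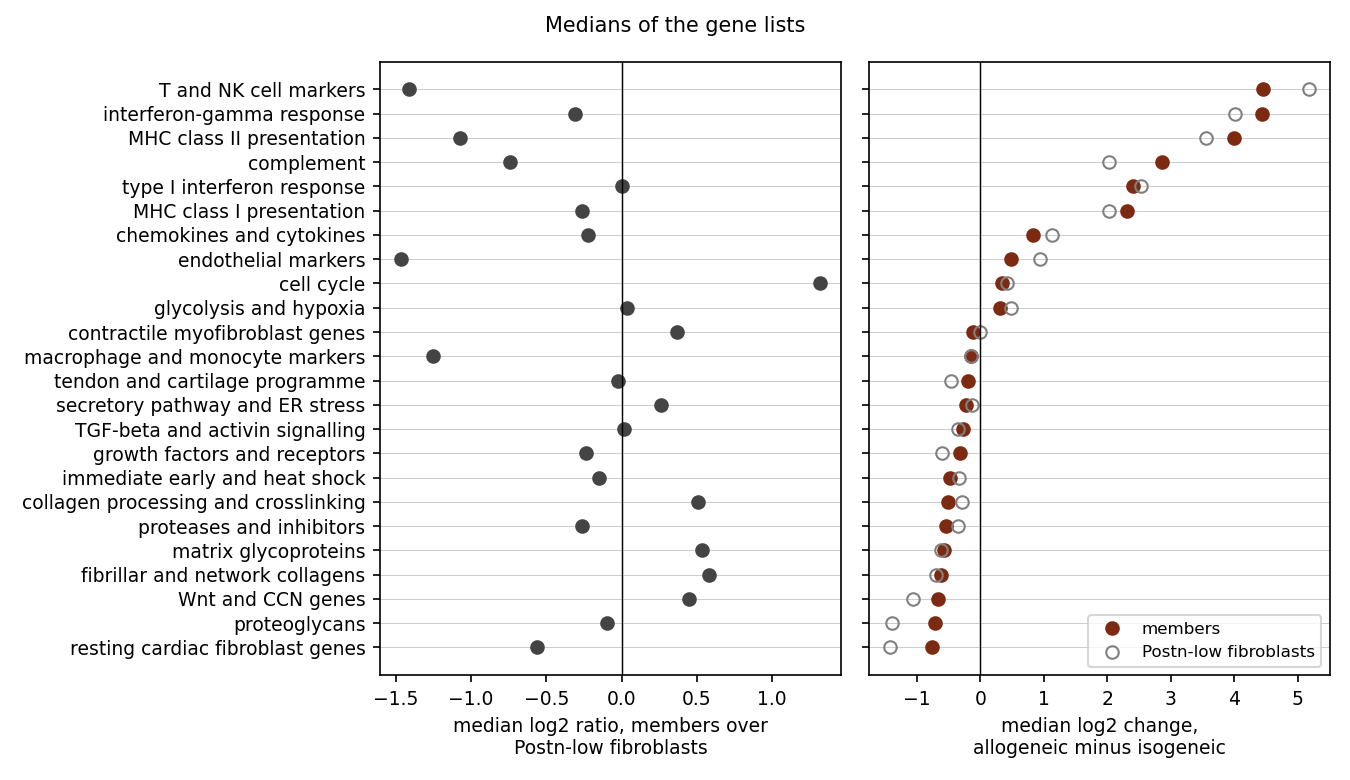
Medians of the gene lists with at least 5 genes tested: left, the log2 ratio of members to Postn-low fibroblasts; right, the log2 change in allogeneic against isogeneic grafts, in members (filled) and Postn-low fibroblasts (open). Interferon gamma genes have a median of 4.44 in members and 4.02 in Postn-low cells, while the collagens have 0.58 on the left and -0.63 and -0.70 on the right. The left value rests on 1 gene for the endothelial list and on 2 for the T and NK cell list.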

How the data were processed

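Transcripts of single cells were counted with a 3' kit of chemistry v3.1, per the labels' protocols. The authors deposited raw UMI counts per gene and barcode, not normalized. Cell Ranger is given as 3.1.0, with build mm10, per the submitters' processing notes, and as 6.1.0 per the file headers; no source used here states the use of strand. Members and lists were chosen with earlier results of these data known. UMIs of each class were added up within a library and tested with edgeR 4.0.16 (TMM, filterByExpr, quasi-likelihood F test, R 4.3.3), in libraries with at least 10 members (at least 10 of both classes for the difference of effects, with the library as a block); DESeq2 1.42.0 was an alternative. Genes of the rule were left out of calls. Ratios of members to Postn-low cells add 0.5 UMI. Named genes were the most changed and the best expressed of each list; further list genes were named for their role after their values were seen. Leukocytes had at least 2 Ptprc and at most 3 collagen UMIs. Doublets were not removed beyond the rule; Scrublet (scanpy 1.11.5) would take 0, 0 and 4 allogeneic and 348 isogeneic members at 0.8% per 1000 barcodes. Intervals and floors (3 UMIs) cover counting error only. Scripts were tested on simulated data.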

Additional observations from a re-analysis of the deposited data

Results flagged for a closer look

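The change between allogeneic and isogeneic grafts differed between members and Postn-low fibroblasts for 10 genes, by the test of the difference itself (edgeR's quasi-likelihood test, library as a block; values are differences of log2 fold changes, members minus Postn-low). Higher in members were Gsn at 2.00, Mgp at 1.72, Mest, an imprinted gene, at 4.36, Comp, a cartilage matrix protein, at 2.65, and Wif1, a secreted Wnt inhibitor, at 11.27. Lower were Ccl24 at -8.38, Igkc at -5.11, Saa3 at -2.66, Arg1, arginase, at -3.75, and Ccl6, a chemokine, at -3.40. With 4 libraries only Ccl24 and Igkc passed (adjusted p = 0.000188 and 0.00044 in edgeR's test). Comp had 0, 15.9 and 53.8 CPM in allogeneic members and 34.1 CPM in isogeneic members, against 30.5, 0 and 41.8 CPM in allogeneic Postn-low cells and 155 CPM in isogeneic Postn-low cells. Mest had 0, 0 and 40.5 CPM in allogeneic members and 6.94 CPM in isogeneic members, against 0, 0 and 6.97 CPM in allogeneic Postn-low cells and 24.9 CPM in isogeneic Postn-low cells. Wif1 was at 0 in all 3 allogeneic Postn-low classes, so its fitted value is no bound. Arg1 and Ccl6 were highest in Postn-low cells of allogeneic 3, at 69.7 and 129 CPM.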

How the results depend on the processing

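The count of genes that differed between grafts in members, 181, was 100 with DESeq2, 110 with Ptprc, Pecam1 and Cdh5 at 0, and 80 with at least 3 Postn and Cthrc1 UMIs (4 libraries). Among alternatives chosen after seeing the data it was 76 with all 4 libraries, 0 with the newer quasi-likelihood method, and 74 with both. Leaving out an allogeneic replicate from 4 libraries gave 151 to 944; without allogeneic 3, 392 of the 944 were higher and 552 lower, among 6126 genes tested. Without the filter on low counts the median of all genes was -0.24. The 10 differences of effect numbered 0 with DESeq2, 5 with those lineage genes at 0, 2 with 4 libraries, 0 with the newer method on 3 or 4 libraries, 20 with Postn-low cells of any Ccl19, and 7 to 10 without an allogeneic replicate. Mgp turned to -0.10 with Postn-low cells of any Ccl19 and -0.17 with both classes of any Ccl19, and Saa3 to 1.66 and 4.27. The 46 genes apart between members and Postn-low cells numbered 186 at 1.5-fold, 213 from 10 CPM and 90 to 98 without 1 library. Where the number of libraries that had to pass changed as well, they numbered 17 with at least 3 UMIs and 10 with both classes of any Ccl19 (4 libraries), and 120 with at least 10 UMIs and 90 with at least 20 cells (2 libraries). H2ac8 turned to -0.23 after thinning. The difference in share, -57.9 points, was -49.9 with at least 10 UMIs and -43.5 with any Ccl19. It was -56.3 with members chosen after thinning and -60.7 with barcodes of at most 20000 UMIs. Fits with at least 10 UMIs, thinned members, at most 20000 UMIs or at least 20 members gave no test, since only allogeneic 3 and the isograft were left; nor did 3-library fits without an allogeneic replicate, which leave 1 library a group. No paired analysis was possible because the groups share only replicate number 2. A mitochondrial limit of 10% and removal of Scrublet doublets moved none of the 3 counts of genes by over 1.5 times, nor did RLE size factors or no filter move the first 2. For single genes compared between grafts, 175 values kept their call and 63 lost it. The 4-library fit without allogeneic 1 is the main fit itself, so its 181 and 10 calls and 17 of the 175 could not move. The few members of allogeneic 1 and 2 limit what could be detected.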

Other observations

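Prg4, lubricin, a lubricant of joints, had 14.9, 63.4 and 425 CPM in allogeneic members and 669 CPM in isogeneic members. Il11, a cytokine of fibrosis, had 71.3, 45.8 and 50.4 CPM in members of allogeneic 2, allogeneic 3 and isogeneic 2, against 9.63, 6.97 and 26.1 CPM in Postn-low cells, and was higher in members in each of them. Meox1, a transcription factor gene of activated heart fibroblasts, had 269, 263 and 229 CPM in members of the same 3 libraries, against 67.4, 128 and 146 CPM in Postn-low cells. Its list, the tendon and cartilage programme, showed no common shift. The median log2 ratio there was -0.02 (6 of 12 genes measured), with 0 genes at least 2-fold higher in each library.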
